A study of Homo sapiens with 20 samples.

Results

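Unwounded GCN2KO keratinocytes were set against unwounded WT keratinocytes, with 5 replicates of each genotype. These 10 of the 20 libraries of the series were taken by their labels, with no measured value used to choose them. Of the 57500 genes listed in each library, 15348 passed a filter for weak expression and were tested. The cells were NTERT, human keratinocytes made immortal with hTERT, which the labels describe as kept in low calcium EpiLife medium with a keratinocyte growth supplement. For cultures used in high density wounding (HDW), the study's methods raised calcium and serum in the confluent layer before wounding, which starts differentiation. The methods for these libraries do not repeat that step or say whether unwounded cells had it. The authors had earlier reported that differentiation can be delayed, though not prevented, in keratinocytes without GCN2. The part of the stage of differentiation in the values below was not tested. WT cells carried a control guide RNA, and GCN2KO cells were an early passage pool edited in GCN2 with CRISPR/Cas9. A pool is not a clone, and the labels do not say how many pools the 5 replicates came from or which of the 2 designed guides was used, so genotype and the history of a pool cannot be told apart and the p-values measure the spread between replicate platings. The other 10 libraries, 5 of each genotype harvested 6 h after HDW, enter where the text says so.

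GCN2 is a protein kinase that is activated by uncharged tRNA when amino acids run short. It phosphorylates the translation factor eIF2, which lowers bulk protein synthesis while the mRNA of the transcription factor ATF4 is translated more, and ATF4 raises genes for amino acid synthesis, transport and tRNA charging. Keratinocytes of the basal layer express KRT5, KRT14 and KRT15 and attach to the basement membrane by hemidesmosomes. They later make the keratins, small proline-rich proteins and enzymes of the cornified envelope, and after injury they express KRT6, KRT16 and KRT17.

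The WT libraries held 14083504 to 30505904 counts and the GCN2KO libraries 18783093 to 34231643. Values below are normalized read counts, which are counts divided by edgeR's effective library size and scaled to its mean over the 10 libraries, and they are given as mean ± SD (n = 5 per genotype) or for libraries 1 to 5 in order. The GCN2KO libraries varied more among themselves, with a median SD of 0.160 on the log2 scale against 0.0793 in WT over 11061 genes with a mean of at least 100 counts. Some GCN2KO libraries also differed from WT by transcript length, and the part of this in the wider spread was not tested. Relative to WT, coding genes with under 2 kb of exons lay 0.31 and 0.27 higher (median log2 difference) in GCN2KO libraries 3 and 5, and those with over 12 kb lay at -0.22 and -0.20 there and at 0.10 in library 2. Of the 10 keratinocyte markers, all were expressed, and their summed level was 582370.0 to 604730.0 in WT and 911520.0 to 997130.0 in GCN2KO libraries. Summed markers of other cell types were far lower, but some moved with genotype. Melanocyte markers summed to 117 to 155 in WT and 319.8 to 469.9 in GCN2KO libraries, Merkel and neural markers to 77.2 to 127 in WT and 272 to 374 in GCN2KO libraries, and leukocyte markers to 1498 to 1725 in WT and 675 to 1205 in GCN2KO libraries, without overlap. Of these lists 1 of 3 tested melanocyte markers (MITF) and 2 of 2 Merkel and neural markers (SYP and TUBB3) were higher DE genes, and 1 of 4 leukocyte markers (CD14) was lower. Fibroblast markers summed, also without overlap, to 816 to 955 in WT and 605 to 806 in GCN2KO libraries, and endothelial markers to at most 35.2 in any library. The part of other cells in the results was not tested. TYR, SOX10, KIT, ATOH1, INSM1 and ELAVL4 had no count in any of the 10 libraries. Among the GCN2KO libraries number 1 lay nearest to WT, being the highest of the 5 in 55.6% of the lower DE genes with a mean of at least 50 counts and the lowest in 51.9% of the higher ones, where DE genes are as defined in the next paragraph.

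EIF2AK4, the gene of GCN2 on chromosome 15, 39934115 to 40035591 of GRCh38, had 4022, 3751, 4101, 3869 and 3953 counts in the WT and 734, 782, 846, 821 and 869 in the GCN2KO libraries (log2 fold change of -2.28 with SE 0.065, edgeR adjusted p = 4.29e-13). The level of this mRNA left in GCN2KO cells was 20.6% of that in WT, while the study's immunoblots found the edited cells effectively without GCN2 protein. The groups did not overlap. In every DE gene given with values below, the 5 GCN2KO libraries likewise lay wholly above or wholly below the 5 WT libraries. For those named by rule from a gene list this was a condition of being named. It also held for 53.4% of all genes tested. Here a DE gene is one that changed at least 1 log2 unit either way and had an adjusted p, by Benjamini-Hochberg over every gene tested, no higher than 0.05 in edgeR's quasi-likelihood test.

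GCN2KO cells differed from WT cells in 2521 DE genes, or 16.4% of those tested, with 1260 higher (8.21%) and 1261 lower (8.22%). These percentages are the background for every list below. Together the higher DE genes took 5.21 ± 0.476% (SD, n = 5) of all counts in WT and 14.4 ± 0.830% (SD, n = 5) in GCN2KO libraries. The lower DE genes took 8.63 ± 0.184% in WT and 3.07 ± 0.343% in GCN2KO libraries. The numbers of genes were alike in both directions, while the share of counts that the higher genes gained was larger than the share the lower genes lost. In 2403 of the DE genes the 5 GCN2KO libraries did not overlap the 5 WT libraries, which was also so for 53.4% of all genes tested. At the adjusted p alone 66.5% of genes passed, so the fold change threshold sets the size of every list.

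**Figure D1:**
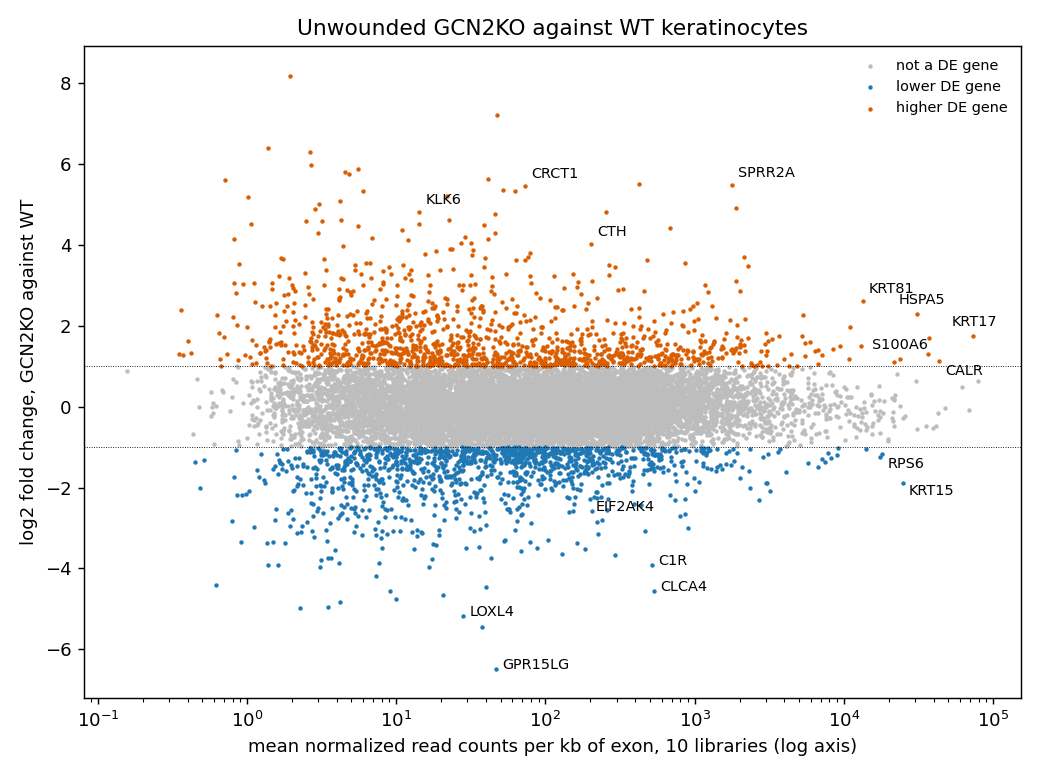
Log2 fold change of GCN2KO against WT unwounded cells for each tested gene of known exonic length, against its mean normalized read counts per kilobase of exon over the 10 libraries (log axis). Orange points are the higher and blue points the lower DE genes, grey points are other genes, and a few genes of both extremes of abundance are labelled.

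Higher DE genes were more frequent at both ends of the range of abundance than in the middle, and lower ones were more frequent at the low end. Genes were ranked by mean counts per kilobase of exon and divided into 10 bins of 1523 genes. In bin 1, the lowest, 18.3% were higher and 15.5% lower DE genes. The higher share was smallest in bin 7 (4.27%) and the lower share in bin 9 (4.46%). In bin 10, the highest, above 685 counts per kilobase, they were 10% and 5.25%. The median SE of a log2 fold change was 0.266 in the lowest and 0.0792 in the highest bin, so estimates at the low end were less precise. A weak gene can also pass the filter through 1 genotype alone, and such a gene had to differ. The shares at the low end are therefore a description. The 12 most abundant higher DE genes took 1.74 to 2.29% of counts in WT libraries and 5.39 to 6.38% in GCN2KO libraries.

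**Figure D2:**
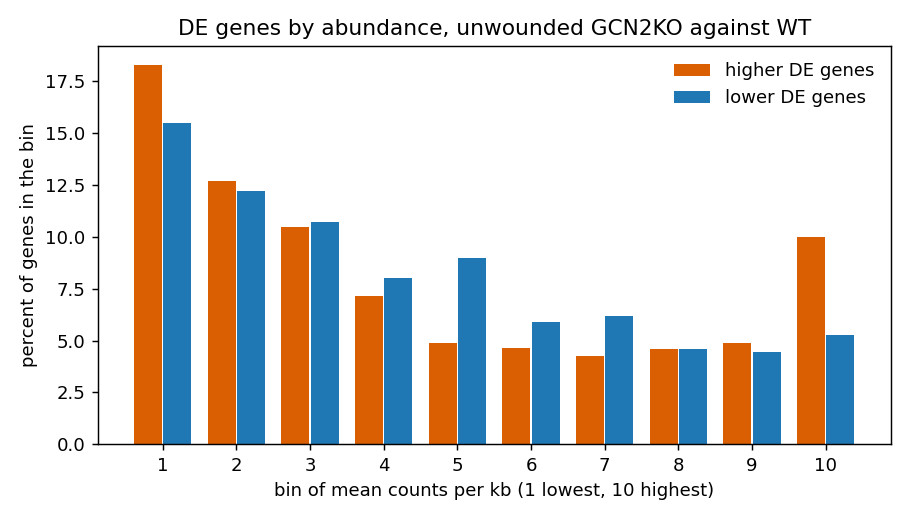
Percent of genes that were higher (orange) or lower (blue) DE genes in GCN2KO unwounded cells, by bin of mean normalized read counts per kilobase, from the lowest (1) to the highest (10). Bin 1 has 18.3% higher and 15.5% lower genes, and bin 10 has 10% and 5.25%. Weak genes can pass the filter through 1 genotype alone, so the shares of the lowest bins are a description.

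Those 12 genes fall into a few functions. KRT17 and KRT6A are keratins of injured epidermis, and KRT81 is a keratin known from hair. KRT17 rose from 33608 to 113164 and KRT81 from 3774 to 23041 counts per kilobase, which are levels that may be compared between genes. CALR, HSPA5, PDIA4 and HSP90B1 are chaperones and a disulfide isomerase of the ER. HSPA5, the ER chaperone BiP, had 52585, 81092, 51272, 86007 and 71059 counts in WT and 283905, 364132, 353026, 360908 and 318852 in GCN2KO libraries (log2 fold change of 2.30 with SE 0.14, edgeR adjusted p = 1.20e-09). S100A6 binds calcium, FTL is the light chain of ferritin, LAMB3 is a laminin chain, PI3 encodes elafin, an inhibitor of elastase, and CDKN1A encodes p21, which inhibits cyclin-dependent kinases. CDKN1A had 20399 ± 1878 in WT and 57922 ± 9302 in GCN2KO cells (log2 fold change of 1.51 with SE 0.11, edgeR adjusted p = 4.76e-09). FTL rose from 14682 to 33012 counts per kilobase and S100A6 from 17459 to 56556.

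The 12 most abundant lower DE genes were led by KRT15, a keratin of basal cells, which went from 38989 to 10598 counts per kilobase. Among them were RPS2, RPS6 and RPS4X of the small ribosomal subunit, RPS2P5, a pseudogene of RPS2, and MT-TP, the mitochondrial tRNA of proline. PDLIM1 links proteins to actin stress fibres, COL17A1 is a collagen of hemidesmosomes, ID1 blocks basic helix-loop-helix factors and SAA1 is an acute phase protein. RPS2 shares 25.9% of exonic bases with other genes in GENCODE, and RPS2 and RPS2P5 are near copies, so that reads could have been exchanged between them.

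More keratins were higher than lower. Of 55 keratin genes 28 were tested, 16 were higher and 2 lower DE genes, and their median log2 fold change was 1.39 against 0.0042 over all genes. The lower ones were KRT15 and KRT1, and KRT1 was lost when GCN2KO library 4 or 5 or WT library 5 was left out, which left 1. KRT6B, a keratin of injured and hyperproliferating epidermis, had 926, 1004, 798, 942 and 886 counts in WT and 5442, 7429.8, 9282, 9267 and 7514 in GCN2KO libraries (log2 fold change of 3.10 with SE 0.13, edgeR adjusted p = 1.70e-11). KRT16, a partner of KRT6, had 5079, 4059, 4668, 4277 and 4549 and 19734, 19728, 24539, 22962 and 22344 (log2 fold change of 2.27 with SE 0.085, edgeR adjusted p = 5.95e-12). Every GCN2KO library lay above every WT library for both. The simple epithelial pair KRT8 and KRT18, which glandular and embryonic epithelia express, was higher too, with KRT18 at 3227 ± 65.4 in WT and 9178 ± 863 in GCN2KO cells (log2 fold change of 1.51 with SE 0.071, edgeR adjusted p = 5.50e-11) and KRT8 at a log2 fold change of 1.40, SE 0.087. The widest differences in the family were those of KRT24 (log2 fold change 4.501, SE 0.22) and KRT78 (log2 fold change 3.27, SE 0.16). KRT6A, KRT6B and KRT6C are near copies, as are KRT81, KRT83 and KRT86, so their counts may not be separable.

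The keratins of the basal layer were not among the higher genes. KRT15 had 231436, 231748, 244902, 221531 and 234000.2 counts in WT and 89247, 58387, 55554, 51894 and 61209 in GCN2KO libraries (log2 fold change of -1.88 with SE 0.13, edgeR adjusted p = 2.45e-09), and the groups were far apart. KRT14 stood at 57275 ± 2016 in WT and 31869 ± 3478 in GCN2KO cells (log2 fold change -0.85, SE 0.080) and KRT5 at 211434 ± 3959 in WT and 298562 ± 21178 in GCN2KO cells (log2 fold change 0.498, SE 0.079), both short of the fold change threshold. Among 19 basal and hemidesmosome genes 4 were lower (KRT15, COL7A1, COL17A1 and CDH3) and 1 higher, with a median of -0.59. The higher gene was LAMB3, the beta chain of laminin 332, at 64064 ± 8339 in WT and 136723 ± 24176 in GCN2KO cells (log2 fold change of 1.09 with SE 0.12, edgeR adjusted p = 7.42e-07). Its partner chain LAMA3 had a negative value under the threshold (log2 fold change -0.59, SE 0.11).

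Small proline-rich proteins, which are cross-linked into the cornified envelope, had the highest median of the lists with at least 9 tested genes. Of 11 genes 9 were tested, 7 were higher and 1 lower (0 without GCN2KO library 5), with a median of 3.90. SPRR2A had 76.2, 66.1, 51.1, 30.2 and 56.5 counts in WT and 1601, 2294, 3140.4, 2690.1 and 2084 in GCN2KO libraries (log2 fold change of 5.47 with SE 0.21, edgeR adjusted p = 9.19e-12). SPRR2D rose from 129 ± 19.2 to 3832 ± 839.8 counts (log2 fold change 4.92, SE 0.16) and SPRR2E from 14.1 ± 4.79 to 608 ± 133 (log2 fold change 5.496, SE 0.21). The SPRR2 genes resemble each other in sequence, so reads could have been shared. Further along the differentiation path the picture was mixed. In the wider list of cornified envelope and late differentiation genes 15 of 46 were higher and 4 lower. IVL, involucrin, rose from 2828 ± 245 to 10041 ± 2394 (log2 fold change of 1.83 with SE 0.13, edgeR adjusted p = 4.94e-09), and CRCT1 and CNFN rose as well (log2 fold change 5.47, SE 0.46 and log2 fold change 2.56, SE 0.22). CASP14, a protease of terminal differentiation, fell from 3808 ± 1092 to 1210.0 ± 225 (log2 fold change of -1.66 with SE 0.17, edgeR adjusted p = 2.86e-07), and TGM5, a transglutaminase of the envelope, had 92.6, 46.8, 94.6, 51.99 and 69.6 counts in WT and 5.17, 0, 0.793, 3.81 and 2.29 in GCN2KO libraries (log2 fold change -4.74, SE 0.37). Of the 15 wound and hyperproliferation genes tested, 8 were higher, while S100A8 (log2 fold change 0.24, SE 0.13) and S100A9 (log2 fold change 0.64, SE 0.12), the chains of calprotectin, stayed under the threshold. Desmosome genes, which hold keratinocytes together, differed less, with 1 of 12 called, DSC1, and 0 without GCN2KO library 1 or WT library 1.

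**Figure D3:**
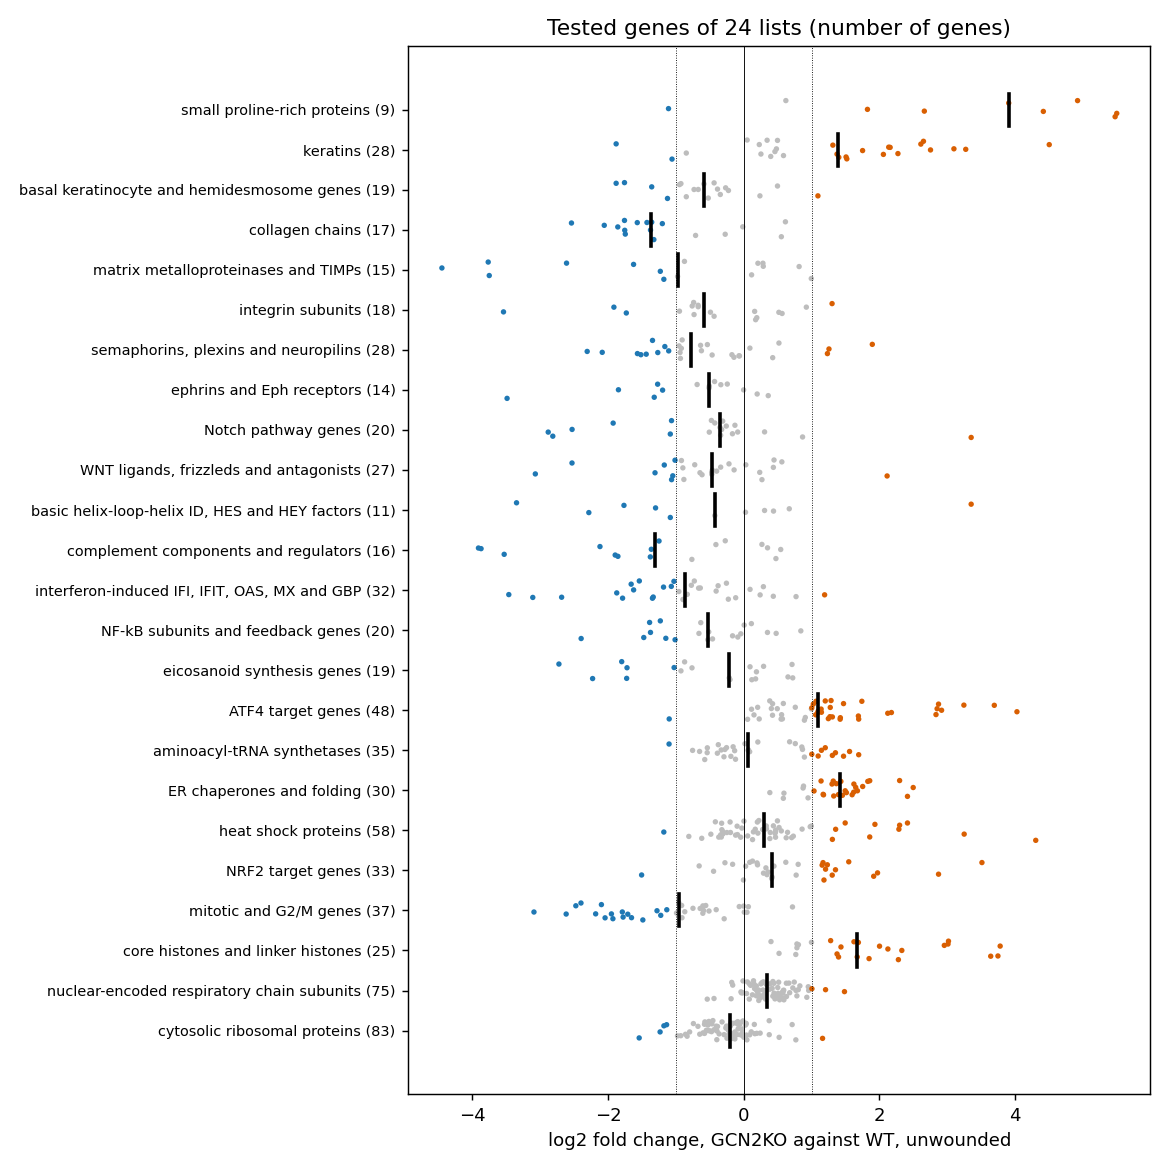
Log2 fold change of GCN2KO against WT unwounded cells for every tested gene of 24 gene lists (1 row each, with the number of tested genes). Points are genes, orange for higher and blue for lower DE genes and grey for others, black bars are list medians, and dotted lines mark a log2 fold change of 1 in either direction.

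Most collagen chains were lower. Of 44 collagen chain genes 17 were tested, 12 were lower and 0 higher, with a median of -1.37. The type IV chains build the sheet of the basement membrane. COL4A2 had 1839, 1891, 1818, 1878 and 1752 counts in WT and 392, 402, 232, 334 and 239 in GCN2KO libraries (log2 fold change of -2.54 with SE 0.13, edgeR adjusted p = 1.48e-10), and COL4A1 went from 872 ± 41.3 to 212 ± 51.1 (log2 fold change -2.05, SE 0.13). COL7A1, the anchoring fibril collagen, and COL17A1 fell from 16976 ± 979 to 5026 ± 853 and from 75015 ± 2171 to 29321 ± 3557 counts (log2 fold change -1.76, SE 0.11 and log2 fold change -1.35, SE 0.085). COL1A1, by contrast, stood at 807 ± 52.4 in WT and 668 ± 85.6 in GCN2KO cells (log2 fold change -0.27, SE 0.087). Of 10 laminin chains 3 were lower and 2 higher. LAMA5 (log2 fold change -1.43, SE 0.13), LAMB1 (log2 fold change -1.38, SE 0.10) and LAMA1 (log2 fold change -2.29, SE 0.11) were the lower ones, and LAMA2 (log2 fold change 1.29, SE 0.29) and LAMB3 the higher. LOXL4, which oxidizes collagen for cross-linking, was nearly lost, with 232, 159.6, 213, 169 and 211 counts in WT and 1.03, 1.39, 7.14, 8.38 and 6.104 in GCN2KO libraries (log2 fold change of -5.17 with SE 0.25, edgeR adjusted p = 6.61e-11).

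Several matrix metalloproteinases were lower and none higher. Of 15 metalloproteinase and TIMP genes tested, 7 were lower and 0 higher. MMP13, a collagenase, had 192, 216, 221, 203 and 251 and 13.4, 4.18, 15.1, 6.86 and 8.39 counts (log2 fold change of -4.45 with SE 0.19, edgeR adjusted p = 2.23e-11), and MMP2, a gelatinase, 182, 147, 153, 128 and 153 and 13.4, 13.9, 7.93, 13.7 and 7.63 (log2 fold change -3.76, SE 0.18). Per kilobase the membrane-bound MMP14 was far more abundant (3110.3 counts against 39.9 for MMP13 over all 10 libraries), and it fell from 19937 ± 679.8 to 8821 ± 941 (log2 fold change -1.18, SE 0.076). Of 18 integrin genes 3 were lower and 1 higher (2 without GCN2KO library 1). ITGB6 fell from 8076 ± 345 to 2144 ± 532 (log2 fold change of -1.91 with SE 0.13, edgeR adjusted p = 2.79e-09) and ITGB8 from 3531 ± 200.1 to 1067 ± 169 (log2 fold change -1.73, SE 0.096), both beta chains that pair with the alpha-V chain and bind latent TGF-beta. The urokinase gene PLAU fell from 5675 ± 399 to 1951 ± 311 (log2 fold change -1.54, SE 0.095), with 31.03% of its exonic bases shared with other genes, while the inhibitor gene SERPINB2 rose from 937 ± 79.2 to 2515 ± 638 (log2 fold change 1.43, SE 0.14). Of 26 mesenchymal genes tested 8 were higher and 2 lower, with VIM, vimentin, at 258 ± 46.4 in WT and 836 ± 71.99 in GCN2KO cells (log2 fold change 1.71, SE 0.10). Of 28 epithelial identity genes 5 were higher and 1 lower, among them the adhesion molecule EPCAM from 187 ± 29.3 to 815 ± 68.6 (log2 fold change 2.11, SE 0.10) and OCLN, occludin, from 442 ± 41.8 to 1221 ± 122 (log2 fold change 1.47, SE 0.084).

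More guidance ligands and receptors were lower than higher. In the semaphorin, plexin and neuropilin family 9 of 28 tested genes were lower and 3 higher, with a median of -0.77. SEMA3A, a secreted repulsive cue, had 147, 158, 174, 185 and 180.1 and 38.3, 39.04, 39.7, 25.1 and 32.04 counts (log2 fold change of -2.31 with SE 0.14, edgeR adjusted p = 5.77e-10), and its coreceptor NRP1 went the other way, from 917 ± 119 to 2194 ± 184 (log2 fold change of 1.26 with SE 0.089, edgeR adjusted p = 4.39e-09). Among ephrins and Eph receptors 5 of 14 were lower and 0 higher. EFNB3, a membrane-bound ephrin, had 526, 537, 503, 469.6 and 534 and 74.5, 41.8, 35.7, 38.9 and 41.2 counts (log2 fold change of -3.49 with SE 0.15, edgeR adjusted p = 1.78e-11). Within the Notch pathway the ligand genes JAG2 and DLL1 fell from 2681 ± 362 to 381 ± 55.8 and from 422 ± 68.7 to 73.3 ± 11.98 (log2 fold change -2.81, SE 0.11 and log2 fold change -2.53, SE 0.13), and LFNG, a glycosyltransferase that modifies Notch, from 485 ± 31.7 to 66.99 ± 23.8 (log2 fold change -2.88, SE 0.16). The receptor NOTCH1 (log2 fold change -0.48, SE 0.12) and the ligand JAG1 (log2 fold change -0.13, SE 0.086) lay under the threshold. In total 6 of 20 Notch pathway genes were lower and 1 higher, or 2 higher without GCN2KO library 1 or WT library 1, 2, 3 or 4.

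Growth factor systems changed in ligands and in the proteins that hold them back. Of 27 WNT pathway genes 7 were lower, among them the ligands WNT10A, from 2424 ± 208 to 288 ± 52.5 (log2 fold change of -3.07 with SE 0.11, edgeR adjusted p = 2.52e-12), and WNT4, from 453 ± 35.4 to 79.4 ± 19.1 (log2 fold change -2.53, SE 0.13). The 1 higher gene was DKK1, a secreted WNT antagonist, with 962, 706, 888, 808 and 789 counts in WT and 2115, 3299, 4635, 4278 and 3602 in GCN2KO libraries (log2 fold change of 2.11 with SE 0.16, edgeR adjusted p = 1.12e-08). IGF binding proteins, which hold insulin-like growth factors outside cells, were lower in IGFBP2 (log2 fold change -3.497, SE 0.21), IGFBP6 (log2 fold change -2.998, SE 0.16) and IGFBP4 (log2 fold change -1.89, SE 0.085), while IGFBP3 stood at 2843 ± 622 in WT and 2794 ± 211 in GCN2KO cells (log2 fold change -0.02, SE 0.12). IGFBP6 had 2869.9, 2305, 1878, 1794 and 1932 and 293, 188, 211, 344 and 295 counts. FGF2 rose from 78.7 ± 6.06 to 369.9 ± 37.02 (log2 fold change 2.22, SE 0.10) while the receptor FGFR3 fell from 1668 ± 205 to 501 ± 129.8 (log2 fold change -1.74, SE 0.13). In the ID, HES and HEY family 5 of 11 were lower and 1 higher, and the highest log2 fold change was 3.35. Among the lower ones ID2 stood at 319 ± 56.4 in WT and 31.2 ± 8.83 in GCN2KO cells (log2 fold change of -3.35 with SE 0.17, edgeR adjusted p = 1.05e-10) and ID3 at 4672 ± 442 in WT and 1372 ± 169.7 in GCN2KO cells (log2 fold change -1.76, SE 0.091). ID genes respond to BMP signals. In the TGF-beta superfamily 4 of 28 tested genes were higher (7 without WT library 1 or 3) and 7 lower, with the growth differentiation factor GDF11 lower (log2 fold change -1.70, SE 0.11) and the stress-induced GDF15 higher, from 1647 ± 345 to 7439 ± 919 (log2 fold change 2.18, SE 0.13).

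Most complement genes were lower, as was a smaller part of the interferon-induced and NF-kB genes. Of 16 complement genes tested 9 were lower and 0 higher, with a median of -1.30. The proteases C1R and C1S, which start the classical pathway, fell from 5602 ± 204 to 375 ± 74.1 (log2 fold change -3.91, SE 0.11) and from 2831 ± 172 to 245 ± 59.99 counts (log2 fold change -3.53, SE 0.13). C3, on which all complement pathways converge, had the most counts per kilobase of the members tested, with 57007, 52663, 60168, 51563 and 53693 counts in WT and 17905, 16374, 12732, 14694 and 12353 in GCN2KO libraries (log2 fold change of -1.89 with SE 0.10, edgeR adjusted p = 2.26e-10). In the interferon-induced family 13 of 32 were lower and 1 higher. The guanylate binding proteins GBP4, GBP6 and GBP2 had the lowest values, and GBP4 had 412, 464, 327, 410.1 and 409 and 60.02, 30.7, 26.98, 28.2 and 38.9 counts (log2 fold change of -3.46 with SE 0.17, edgeR adjusted p = 8.15e-11). In the same family IFI27 (log2 fold change 0.77, SE 0.10), IFI6 (log2 fold change 0.29, SE 0.17) and ISG15 (log2 fold change 0.24, SE 0.16), which interferon is known to induce as well, had positive values under the threshold. Among NF-kB subunits and feedback genes 7 of 20 were lower, with NFKB1 at 2641 ± 79.5 in WT and 1012 ± 126 in GCN2KO cells (log2 fold change -1.39, SE 0.079) and the feedback inhibitor TNFAIP3 at 1773 ± 113 in WT and 686 ± 97.2 in GCN2KO cells (log2 fold change -1.37, SE 0.088). RELA, the p65 subunit, stood at 2546 ± 122 in WT and 2558 ± 188 in GCN2KO cells (log2 fold change 0.01, SE 0.066). The chemokine CCL20 fell from 185 ± 19.9 to 35.4 ± 8.04 (log2 fold change -2.40, SE 0.14) and CXCL8, interleukin 8, stood at 217 ± 27.8 in WT and 191 ± 63.2 in GCN2KO cells (log2 fold change -0.16, SE 0.18). CD14, a receptor for bacterial lipopolysaccharide, was lower, at 1522 ± 93.3 in WT and 712 ± 226 in GCN2KO cells (log2 fold change -1.10, SE 0.15).

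In the lists for lipid mediators, retinoids and oxidases more genes were lower than higher, and most were not called. Of 19 eicosanoid genes tested 6 were lower and 0 higher. ALOX15B, a lipoxygenase, fell from 1167 ± 90.6 to 251 ± 99.6 (log2 fold change of -2.23 with SE 0.17, edgeR adjusted p = 1.45e-08). Of 19 genes of retinoid metabolism 6 were lower and 1 higher, with STRA6, the membrane receptor for retinol binding protein, at 1372 ± 52.1 in WT and 505 ± 104 in GCN2KO cells (log2 fold change -1.45, SE 0.11) and CRABP2, which carries retinoic acid in the cell, at 4376 ± 243 in WT and 1834 ± 419.8 in GCN2KO cells (log2 fold change -1.25, SE 0.12). The higher one was LRAT, which stores retinol as an ester (log2 fold change 2.05, SE 0.20). Of 10 genes of NADPH and dual oxidases 4 were lower and 1 higher. Both dual oxidases were lower, DUOX1 from 2049.5 ± 63.2 to 779 ± 155 (log2 fold change -1.40, SE 0.11) and DUOX2 from 139 ± 16.9 to 54.1 ± 14.6 (log2 fold change -1.36, SE 0.16).

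Most genes on the list of ATF4 targets, which holds amino acid genes and other stress genes, were higher. Of 48 tested genes 29 were higher and 1 lower, with a median of 1.09. CTH, cystathionine gamma-lyase, makes cysteine from cystathionine and had 52.6, 67.7, 40.2, 64.6 and 55.7 counts in WT and 860.0, 951, 956, 894 and 919 in GCN2KO libraries (log2 fold change of 4.03 with SE 0.11, edgeR adjusted p = 2.49e-13). TRIB3, a pseudokinase that feeds back on ATF4, had 679, 1346, 608, 1315 and 1066 and 12714, 13011, 13060.0, 13513 and 12679 (log2 fold change of 3.69 with SE 0.19, edgeR adjusted p = 1.17e-10). ASNS, asparagine synthetase, rose from 970.4 ± 244 to 4234 ± 503 (log2 fold change 2.12, SE 0.14) and PSAT1 of serine synthesis from 2364 ± 694 to 7637 ± 774 (log2 fold change 1.69, SE 0.16). Of 22 serine, glycine and one-carbon enzymes 5 were higher (3 without WT library 1 or 3) and 2 lower (1 without GCN2KO library 3, 4 or 5 or WT library 5). PHGDH, the first enzyme of serine synthesis, stood at 3442 ± 526 in WT and 4037 ± 556 in GCN2KO cells (log2 fold change 0.23, SE 0.11). The lower gene was ATF5, from 916 ± 61.8 to 429 ± 41.5 (log2 fold change -1.10, SE 0.079), itself a transcription factor related to ATF4, with 22.1% of its exonic bases shared with other genes. ATF4 mRNA was at 13314 ± 961 in WT and 19525 ± 1723 in GCN2KO cells (log2 fold change of 0.55 with SE 0.077, edgeR adjusted p = 9.84e-06). Of the other eIF2 kinases, EIF2AK3 (PERK) stood at 609 ± 24.98 in WT and 1119 ± 110.3 in GCN2KO cells (log2 fold change 0.87, SE 0.074), EIF2AK1 at 4106 ± 85.4 in WT and 4678 ± 173 in GCN2KO cells (log2 fold change 0.19, SE 0.056) and EIF2AK2 at 6588 ± 602 in WT and 5388 ± 624 in GCN2KO cells (log2 fold change -0.29, SE 0.086), all under the fold change threshold.

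The tRNA synthetases that passed as higher DE genes all serve the cytosol. Of 35 synthetase genes 9 were higher and 1 lower, the higher ones being GARS1, TARS1, WARS1, LARS1, CARS1, AARS1, MARS1, EPRS1 and IARS1. GARS1 rose from 4091 ± 483 to 13244 ± 643 (log2 fold change of 1.69 with SE 0.082, edgeR adjusted p = 7.35e-11). QARS1, which charges tRNA with glutamine, was the lower one, from 7078 ± 435 to 3304 ± 409 (log2 fold change of -1.10 with SE 0.082, edgeR adjusted p = 7.42e-09). KARS1, which charges tRNA with lysine, had a value near 0 (log2 fold change 0.07, SE 0.059). Of the genes that act in mitochondria alone, RARS2 had the highest value (log2 fold change 0.86, SE 0.094) and CARS2 the lowest (log2 fold change -0.75, SE 0.076).

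Promoter sequences of these genes were read from RefSeq (GRCh38.p14) in a window from 250 bases before to 50 bases after the start of the gene, for 10403 of the 12798 coding genes tested. The letters TGATGNAA, bound by pairs of ATF4 and CEBP factors, were searched on both strands. They were in 10 of 39 matched promoters of the ATF4 list (25.6%) and in 1.71% of all matched promoters. The list was made of genes already known as ATF4 targets, so its larger share is a description. The sequences below show the match in capitals with up to 25 bases on either side, 5′ to 3′ on the strand of the gene, for 4 DE genes of the list, chosen as higher DE genes with values given in the text.
CHAC1 (chr15:40953237-40953294, gene strand +): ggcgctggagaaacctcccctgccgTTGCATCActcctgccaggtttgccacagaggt
ATF3 (chr1:212565191-212565248, gene strand +): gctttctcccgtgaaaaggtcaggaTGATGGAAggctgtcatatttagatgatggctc
ASNS (chr7:97872444-97872501, gene strand -): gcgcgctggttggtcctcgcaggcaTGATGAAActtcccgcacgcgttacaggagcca
AARS1 (chr16:70289661-70289718, gene strand -): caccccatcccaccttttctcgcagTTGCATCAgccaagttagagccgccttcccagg

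CHAC1, which degrades glutathione, had 114, 213, 90.2, 216 and 158 counts in WT and 1162, 1140.5, 1268, 1257 and 1187 in GCN2KO libraries (log2 fold change of 2.92 with SE 0.17, edgeR adjusted p = 3.93e-10). ATF3, a stress-induced transcription factor, had 167, 258, 153, 219.7 and 224 and 1389, 1804, 2422, 1954 and 2134 (log2 fold change of 3.24 with SE 0.15, edgeR adjusted p = 5.89e-11), and AARS1, which charges tRNA with alanine, rose from 7581 ± 1874 to 17447 ± 1094 (log2 fold change 1.20, SE 0.13). In CHAC1 and AARS1 the match lies on the strand opposite to the gene. The same letters also occur before KLK6 and IL7R, higher DE genes that are not on the list, and before SLC1A3, GBP1 and HRK, which are lower ones, so some genes with a match were lower. Over all matched promoters they were before 31 of 788 higher DE genes (3.93%) and 13 of 841 lower ones (1.55%). The 5 genes named here were picked after their values were seen, with log2 fold changes of 4.81, 3.68, -2.27, -1.62 and -3.17.

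The ER folding genes were nearly all higher. Of 30 genes 24 were higher, 0 lower and all 30 had a log2 fold change above 0, with a median of 1.41. HERPUD1 and SEL1L act in the removal of misfolded proteins, at 1997 ± 479 in WT and 11280.2 ± 2028 in GCN2KO cells (log2 fold change 2.497, SE 0.16) and 5036 ± 701 in WT and 15813 ± 1370.5 in GCN2KO cells (log2 fold change 1.65, SE 0.096). CANX and CALR hold glycoproteins during folding, and CANX rose from 32798 ± 3023 to 110556 ± 9124 (log2 fold change 1.75, SE 0.087), with the gene on chromosome 5. P4HB and PDIA6 exchange disulfide bonds, with a log2 fold change 1.30, SE 0.086 for P4HB and a log2 fold change 1.40, SE 0.10 for PDIA6. The sensor genes ATF6 (log2 fold change 0.95, SE 0.059) and EIF2AK3 stayed under the threshold and ERN1 passed it (log2 fold change 1.45, SE 0.099). The ER stress element is bound by NF-Y and ATF6. Searched as CCAAT and CCACG with 9 bases between them on both strands, it was in 7 of 27 matched promoters of this list (25.9%) and in 14 of 10403 matched promoters overall (0.135%). The list was made of known ER folding genes, so its larger share is a description. The matches in HSPA5, CALR and HSP90B1 are shown because these are among the 4 members with the most counts per kilobase, with CALR at 43665, HSPA5 at 30978 and HSP90B1 at 9494 over the 10 libraries. Capitals mark the match, which lies on the opposite strand in CALR and in the second match of HSP90B1.
HSPA5 (chr9:125241366-125241434, gene strand -): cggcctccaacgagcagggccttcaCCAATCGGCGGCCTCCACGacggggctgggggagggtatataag
CALR (chr19:12938359-12938427, gene strand +): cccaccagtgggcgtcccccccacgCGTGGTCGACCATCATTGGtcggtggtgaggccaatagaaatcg
HSP90B1 first match (chr12:103930191-103930259, gene strand +): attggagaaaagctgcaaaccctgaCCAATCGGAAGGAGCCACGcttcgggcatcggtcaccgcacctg
HSP90B1 second match (chr12:103930296-103930364, gene strand +): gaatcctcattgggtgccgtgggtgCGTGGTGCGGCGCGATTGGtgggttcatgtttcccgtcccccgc

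CALR had 65914, 86632, 61744, 88137 and 79497 counts in WT and 150732, 155803, 187270.2, 169452 and 178306 in GCN2KO libraries (log2 fold change of 1.14 with SE 0.11, edgeR adjusted p = 1.35e-07). HSP90B1 had 50979, 73459, 51706, 78650.0 and 67677 counts in WT and 168740.4, 194313, 189060.2, 192626 and 175676 in GCN2KO libraries (log2 fold change of 1.51 with SE 0.12, edgeR adjusted p = 1.46e-08). Of 58 heat shock and DNAJ genes 10 were higher, and 1 lower. Of the higher ones DNAJB9, HSPA5, HSPA13, DNAJB11, DNAJC3 and DNAJC1 are known from the ER and HSPA9 is the HSP70 of mitochondria. HSPA13 rose from 862 ± 32.6 to 4205 ± 840.3 (log2 fold change 2.29, SE 0.11) and HSPA9 from 6842 ± 344 to 17498 ± 183 (log2 fold change 1.35, SE 0.061). In the cytosol HSPA8 stood at 18064 ± 1479 in WT and 20876 ± 3198 in GCN2KO cells (log2 fold change 0.21, SE 0.099) and HSP90AB1 at 40529 ± 1269.9 in WT and 29012 ± 2382 in GCN2KO cells (log2 fold change -0.48, SE 0.071), while HSPA6, a stress-induced HSP70, was at 18.1, 12.9, 18.5, 10.1 and 13.1 and 87.97, 129.7, 136, 203 and 112 counts (log2 fold change 3.25, SE 0.25).

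Antioxidant genes were raised in part. Of 33 NRF2 target genes 12 were higher and 1 lower, with a median of 0.42. HMOX1, heme oxygenase, had 107, 103, 92.4, 107 and 85.3 counts in WT and 601, 1430.5, 1086, 1567 and 926 in GCN2KO libraries (log2 fold change of 3.51 with SE 0.22, edgeR adjusted p = 1.28e-09), with the highest GCN2KO library well over the lowest. SLC7A11, the cystine importer that is on the ATF4 list as well, rose from 1052 ± 408 to 7726 ± 534 (log2 fold change 2.87, SE 0.21), and TXNRD1, thioredoxin reductase, from 4573 ± 217 to 13373 ± 804 (log2 fold change 1.55, SE 0.066). The enzymes of glutathione synthesis GCLC (log2 fold change 0.09, SE 0.075) and GCLM (log2 fold change 0.41, SE 0.066) and the NADPH-forming TKT (log2 fold change -0.28, SE 0.083) and PGD (log2 fold change 0.00, SE 0.090) did not pass the fold change threshold. Of the 4 metallothioneins tested, which bind zinc and copper, 2 were lower, MT2A from 4407 ± 118 to 1196 ± 567 (log2 fold change -1.88, SE 0.20) and MT1E, whose call was lost without GCN2KO library 4, which left 1. Their copies are alike in sequence. SLC31A1, the copper importer, rose from 1391 ± 67.8 to 7153 ± 795 (log2 fold change of 2.36 with SE 0.080, edgeR adjusted p = 1.99e-12).

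**Figure D4:**
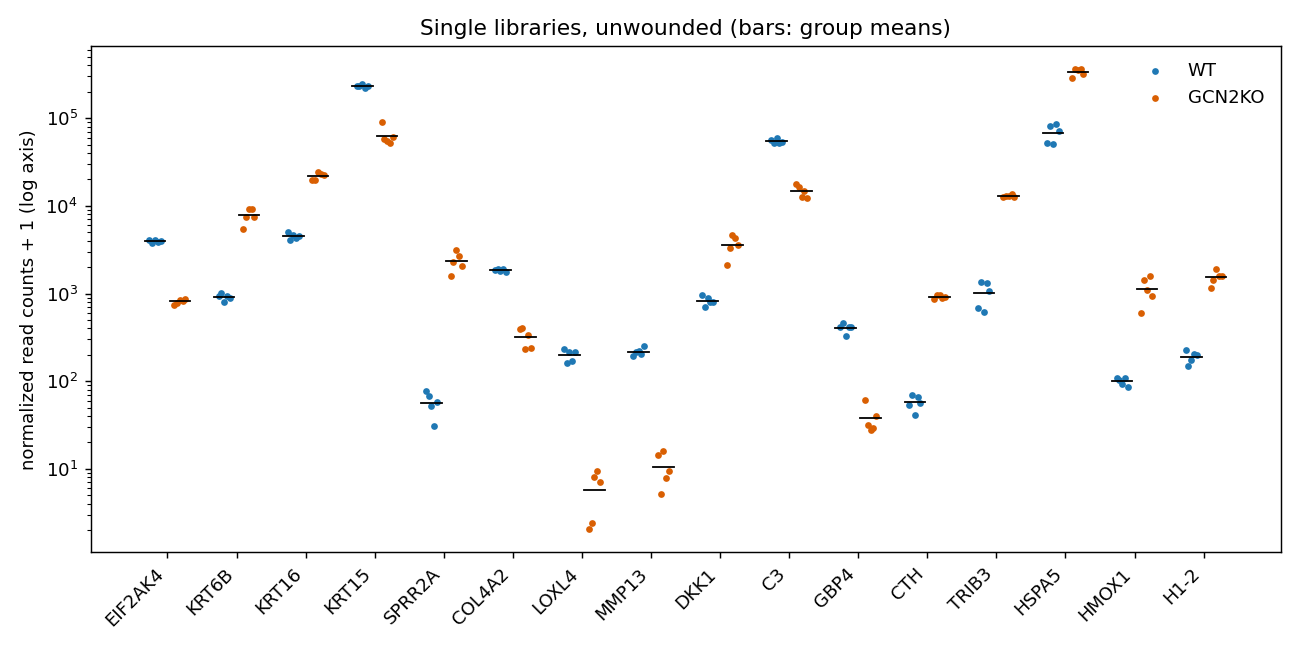
Normalized read counts (log axis, pseudocount 1) of 16 genes in each unwounded library, blue for the 5 WT and orange for the 5 GCN2KO libraries, with bars at group means. The genotypes do not overlap in any of the 16 genes, most of which were named by a rule that requires this. GCN2KO points spread most on the log scale for LOXL4.

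Part of the cell cycle genes were lower. Of 37 mitotic genes 17 were lower and 0 higher, with a median of -0.96. MKI67, the proliferation antigen Ki-67, had 134, 93.5, 116, 73.8 and 81.8 counts in WT and 39.3, 20.9, 7.14, 13.7 and 16.02 in GCN2KO libraries (log2 fold change of -2.40 with SE 0.30, edgeR adjusted p = 2.59e-06), and TOP2A, topoisomerase II, 263, 226, 325, 213 and 263 and 67.3, 55.8, 53.2, 55.6 and 53.4 (log2 fold change of -2.18 with SE 0.13, edgeR adjusted p = 6.68e-10). In these bulk samples fewer dividing cells and less mRNA per cell cannot be told apart. Of 41 replication genes 10 were lower and 2 higher. Lower were CDT1, which loads the MCM helicase, from 164 ± 28.7 to 19.2 ± 8.24 (log2 fold change -3.08, SE 0.22) and RRM2, a subunit of ribonucleotide reductase, from 89.3 ± 29.6 to 12.9 ± 4.75 (log2 fold change -2.71, SE 0.27). CDC6, the loading partner of CDT1, went the other way, with 39.9, 49.98, 55.5, 55.4 and 55.7 and 329, 392, 482, 414 and 465 counts (log2 fold change of 2.99 with SE 0.13, edgeR adjusted p = 2.23e-11). TK1, thymidine kinase, was the other higher gene of the list (log2 fold change 1.56, SE 0.23). CDK4 fell from 1190.1 ± 24.6 to 486 ± 53.1 (log2 fold change -1.29, SE 0.074), with 44.2% of its exonic bases shared with other genes.

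Of 70 core and linker histone genes 25 were tested, 18 were higher and all 25 had a positive value, with a median of 1.67. H1-2, a linker histone of the replication-dependent class, had 223, 148, 174, 203 and 198 counts in WT and 1168, 1412, 1923, 1588 and 1571 in GCN2KO libraries (log2 fold change of 3.02 with SE 0.13, edgeR adjusted p = 2.25e-11), and H2AC6 rose from 954 ± 66.03 to 2941 ± 499 (log2 fold change 1.62, SE 0.10). Replication-dependent histone mRNAs normally end in a stem-loop without a poly(A) tail, and whether the libraries were made from poly(A) RNA is not given in the sources used here, which bears on these counts. The TATAAA box was in 14 of 24 matched histone promoters (58.3%) and in 5.85% of all matched promoters, on either strand.

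Of 383 solute carriers 241 were tested, 22 were higher and 19 lower, shares near the background. SLC3A2, the heavy chain of the cystine and large neutral amino acid exchangers, rose from 20800.2 ± 2773 to 49370.0 ± 3541 (log2 fold change 1.25, SE 0.093), while SLC1A3, a glutamate and aspartate importer, had 8181, 6727, 8961, 7270.4 and 7813 and 2129, 1595, 1451, 1466 and 1472 counts (log2 fold change of -2.27 with SE 0.11, edgeR adjusted p = 7.90e-11). The chloride channel regulators CLCA2 and CLCA4 fell, CLCA2 from 19878 ± 914 to 4018 ± 1028 (log2 fold change -2.31, SE 0.13) and CLCA4 from 3556 ± 756 to 152 ± 69.5 (log2 fold change of -4.55 with SE 0.22, edgeR adjusted p = 8.77e-11). In glycolysis HK2, hexokinase 2, rose from 1900.5 ± 66.3 to 4565 ± 758 (log2 fold change 1.26, SE 0.095) and PFKL, a phosphofructokinase, fell from 4446 ± 116 to 1785 ± 235 (log2 fold change -1.32, SE 0.080). Of 16 polyamine and arginine enzymes 3 were higher, with ODC1, ornithine decarboxylase, at 199.7, 218, 174, 199.6 and 197 and 987, 1299, 1446, 1345 and 1280.2 counts (log2 fold change of 2.69 with SE 0.10, edgeR adjusted p = 7.05e-12), and ARG2, mitochondrial arginase, at 64.96 ± 7.06 in WT and 638 ± 65.7 in GCN2KO cells (log2 fold change 3.28, SE 0.11), which shares 39.6% of its exonic bases with another gene. Cholesterol genes had a positive median of 0.43 with 1 of 25 called, STARD4 (log2 fold change 1.53, SE 0.14).

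Of 55 glycosyltransferase genes tested, which start or finish sugar chains, 11 were lower and 6 higher. GALNT12, which starts mucin-type chains, had 715, 746, 790.4, 766 and 756 and 98.3, 40.4, 35.7, 65.5 and 60.3 counts (log2 fold change of -3.65 with SE 0.17, edgeR adjusted p = 4.92e-11), and ST6GALNAC2, which caps them with sialic acid, fell from 4145 ± 255 to 643 ± 182 (log2 fold change -2.69, SE 0.14). The fucosyltransferases FUT3 and FUT6 were higher, FUT3 from 395 ± 34.6 to 979 ± 124 (log2 fold change 1.30, SE 0.091) and FUT6 from 5.24 ± 1.58 to 123 ± 19.7 (log2 fold change 4.53, SE 0.22). These are neighbouring genes of close sequence on chromosome 19. MUC1, a membrane mucin, fell from 857 ± 36.3 to 201 ± 62.7 (log2 fold change -2.10, SE 0.14). ST6GALNAC2 shares 59.1% and GALNT12 20.9% of exonic bases with other genes.

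Most ribosomal and mitochondrial genes lay under the threshold. Of 83 cytosolic ribosomal protein genes 4 were lower and 1 higher, with a median of -0.20. RPS6 had 66909, 65136, 71094, 62479 and 69816 counts in WT and 31080.5, 22952, 34961, 22092 and 37400.3 in GCN2KO libraries (log2 fold change of -1.18 with SE 0.13, edgeR adjusted p = 6.90e-07), and RPS2 and RPS4X fell by 1.23 and 1.14 on the log2 scale, so that 3 of the 4 lower members encode proteins of the small subunit. GCN2KO libraries 3 and 5 had the highest RPS6 counts of their group. The remaining lower member was RPL3L (log2 fold change -1.54, SE 0.36). The highest was RPL26L1, a copy of RPL26 on chromosome 5 (log2 fold change 1.16, SE 0.11). Of 75 nuclear genes of the respiratory chain 66 had positive values with a median of 0.34, and 3 were called (5 without GCN2KO library 1 or 2). These are short transcripts, the class that lay higher in GCN2KO libraries 3 and 5, and with the length trend of each library taken out their median was 0.37, against -0.24 for the cytosolic ribosomal proteins. The 13 mRNAs of the mitochondrial genome had a median of -0.12 with 0 called. The share of counts on mitochondrial genes was 0.484 to 0.536% in WT and 0.405 to 0.551% in GCN2KO libraries (two-sided exact permutation p = 0.175, adjusted p = 0.175 over 3 library values, n = 5 and 5). Without GCN2KO library 4 the difference of means was -0.0565 percentage points with an exact permutation p of 0.0317.

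The 10 most abundant genes of a library took 6.64 to 7.13% of its counts in WT and 8.099 to 8.67% in GCN2KO libraries (exact permutation p = 0.00794, adjusted p = 0.0119, the smallest that 5 against 5 allows before adjustment). At the depth of the smallest library, 20936 to 21109 genes had a count in WT and 21322 to 22000 in GCN2KO libraries (exact permutation p = 0.00794, adjusted p = 0.0119).

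Transcription factors changed in small groups. Of 451 C2H2 zinc finger genes tested 6 were higher and 23 lower, both under the background share. FOXA2, a forkhead factor known from endoderm, had 27.2, 38.7, 21.8, 34.4 and 11.3 and 257, 343, 297, 398 and 296 counts (log2 fold change of 3.62 with SE 0.21, edgeR adjusted p = 4.65e-10), and MITF, the melanocyte factor that also acts in lysosome control, rose from 79.2 ± 15.4 to 307 ± 72.3 (log2 fold change 1.98, SE 0.17) while the melanocyte factor SOX10 was at 0. SOX4 fell from 6949 ± 307 to 1442 ± 233 (log2 fold change of -2.27 with SE 0.096, edgeR adjusted p = 2.05e-11). Among 27 HOX genes 4 were higher and 4 lower, with HOXA3 at 464 ± 67.7 in WT and 134 ± 15.02 in GCN2KO cells (log2 fold change -1.78, SE 0.11). In the AP-1, ATF and CEBP family 6 of 34 were higher, with DDIT3 (CHOP) at 643 ± 188 in WT and 4658 ± 776 in GCN2KO cells (log2 fold change 2.85, SE 0.17), and 3 lower. DDIT3 shares 39.6% of its exonic bases with other genes.

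At the low end, 899 of the 3161 tested genes with a mean under 50 counts were DE genes, 488 higher and 411 lower. A gene that is weak in both genotypes fails the filter, so a gene that passed it through 1 genotype alone had to differ, and these counts are a description. KLK5 and KLK6, serine proteases of the shedding epidermis, had 9.08, 8.06, 3.26, 3.35 and 3.48 and 1.81, 1.61, 1.09, 2.52 and 1.74 counts in WT and 79.7, 62.7, 70.6, 75.4 and 75.5 and 49.7, 64.1, 61.1, 50.3 and 46.5 in GCN2KO libraries (log2 fold change 3.90, SE 0.23 and log2 fold change 4.81, SE 0.27). SLIT3, a guidance ligand, rose from 8.18 ± 2.84 to 88.2 ± 12.7 (log2 fold change 3.38, SE 0.21). ST8SIA6, a sialyltransferase, rose from 2.96 ± 1.98 to 75.5 ± 15.7 (log2 fold change 4.46, SE 0.30). On the lower side stood BGN, biglycan, from 63.2 ± 10.6 to 7.27 ± 1.99 (log2 fold change -3.09, SE 0.21), CYP24A1, which breaks down vitamin D, from 79.6 ± 13.4 to 11.3 ± 1.99 (log2 fold change -2.78, SE 0.19), and HSD11B2, which inactivates cortisol, from 65.98 ± 9.64 to 7.94 ± 2.73 (log2 fold change -3.05, SE 0.21).

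Some genes were nearly silent in 1 genotype. In WT 35 tested genes had at most 3 counts in every library, and in GCN2KO cells 11 did. These genes passed the filter through the other genotype alone, so they had to differ. The limit is on raw counts, and WT libraries held 14083504 to 30505904 counts against 18783093 to 34231643 in GCN2KO. The numbers 35 and 11 are therefore not a like comparison. Among genes near silent in WT, CRCT1, a cornified envelope gene, had 1 to 3 raw counts in WT and 45 to 219 in GCN2KO libraries. WFDC12, of the WAP family of protease inhibitors, had 0 to 3 and 47 to 133, and LMCD1, a LIM domain protein, 0 to 3 and 27 to 89. SPANXC and MAGEA11, genes of the germline on the X chromosome, had at most 3 and 1 counts in any WT library and 35 to 94 and 16 to 59 in GCN2KO libraries. Near silent in GCN2KO cells were GPR15LG, a ligand of a lymphocyte receptor, with 26 to 92 raw counts in WT and 0 to 2 in GCN2KO libraries, and KCND2, a potassium channel, with 15 to 29 and 0 to 2. Raw counts are given here because they show how few reads stand behind the lower group.

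Coding genes made up 12798 of the genes tested, with 7.84% higher and 8.46% lower DE genes. Long noncoding RNAs, 1329 genes, had 11.7% and 8.58%. Their counts were low, with a median of 26.1 counts against 682 for coding genes. H19, an imprinted noncoding RNA, fell from 974 ± 150.4 to 404 ± 74.1 (log2 fold change of -1.27 with SE 0.12, edgeR adjusted p = 1.79e-07).

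Genes of chromosome 5 lay higher than those of any other chromosome. Their median log2 fold change was 0.35 over 695 genes, with 15.3% higher and 4.46% lower DE genes. The medians of the other chromosomes lay between -0.12 (chromosome 22) and 0.08 (chromosome 13). The shift was in each GCN2KO library, with medians over the chromosome of 0.36, 0.36, 0.40, 0.34 and 0.37 relative to WT, and on both sides of its largest gap between genes, 0.25 before and 0.36 after it. Without chromosome 5, 1154 genes were higher and 1230 lower. Genes named here that lie on it with higher values include CANX, HSPA9, IL7R, TARS1, LARS1, STARD4, OCLN, SLIT3 and RPL26L1. SLC1A3 and CD14 lie on it with lower values. The part of the chromosome-wide shift in the values of all these genes was not tested.

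After HDW most of these differences were still there. Of the 2521 DE genes 2474 had the same direction between the genotypes in wounded cells, and 1574 were DE genes there as well in a fit of all 20 libraries. The difference of the differences was tested as an interaction. It had an adjusted p of at most 0.05 and a size of at least 1 in 286 of these genes, against 3.31% of all 16536 genes tested, and in 191 of them the gene was higher in unwounded GCN2KO cells and less so after HDW. Genes chosen for a large unwounded difference tend to have a smaller one in other samples, so these counts are a description.

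The ATF4 list held many of these. Of the 30 DE genes of the ATF4 list 19 passed it, and the median of the 30 log2 fold change was 1.36 in unwounded and 0.25 in wounded cells. The log2 fold change of ASNS was 2.12 before and -0.31 after HDW (interaction of 2.43, SE 0.17, edgeR adjusted p = 9.22e-10), that of CTH 4.03 and 1.16 (interaction of 2.86, SE 0.17, edgeR adjusted p = 5.69e-11) and that of PSAT1 1.69 and -0.58 (interaction of 2.26, SE 0.20, edgeR adjusted p = 2.59e-08). In the ER folding list 10 of 24 DE genes passed, with medians of 1.504 and 0.59. Among the collagens 0 of 12 passed, among complement genes 0 of 9 and among histones 1 of 18, where medians were 2.06 and 2.60.

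KRT6B had a log2 fold change of 3.10 in unwounded cells and -0.09 after HDW (interaction of 3.19, SE 0.17, edgeR adjusted p = 9.76e-12), and CDC6 2.99 and -0.09 (interaction of 3.08, SE 0.20, edgeR adjusted p = 2.32e-10). LAMB1, a laminin chain, was at -1.38 and -0.20 (interaction of -1.18, SE 0.12, edgeR adjusted p = 1.27e-07). CXCL1, a neutrophil chemokine, was at -1.41 and -0.02 (interaction of -1.40, SE 0.16, edgeR adjusted p = 6.81e-07). Other genes had wide differences on both sides of HDW, HMOX1 at log2 fold changes of 3.51 and 4.32, KRT81 of 2.61 and 1.70 and IGFBP6 of -2.998 and -3.78. In H4C8, a histone H4 gene, the difference was 3.64 before and 4.93 after HDW (interaction of -1.30, SE 0.35, edgeR adjusted p = 0.009).

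**Figure D5:**
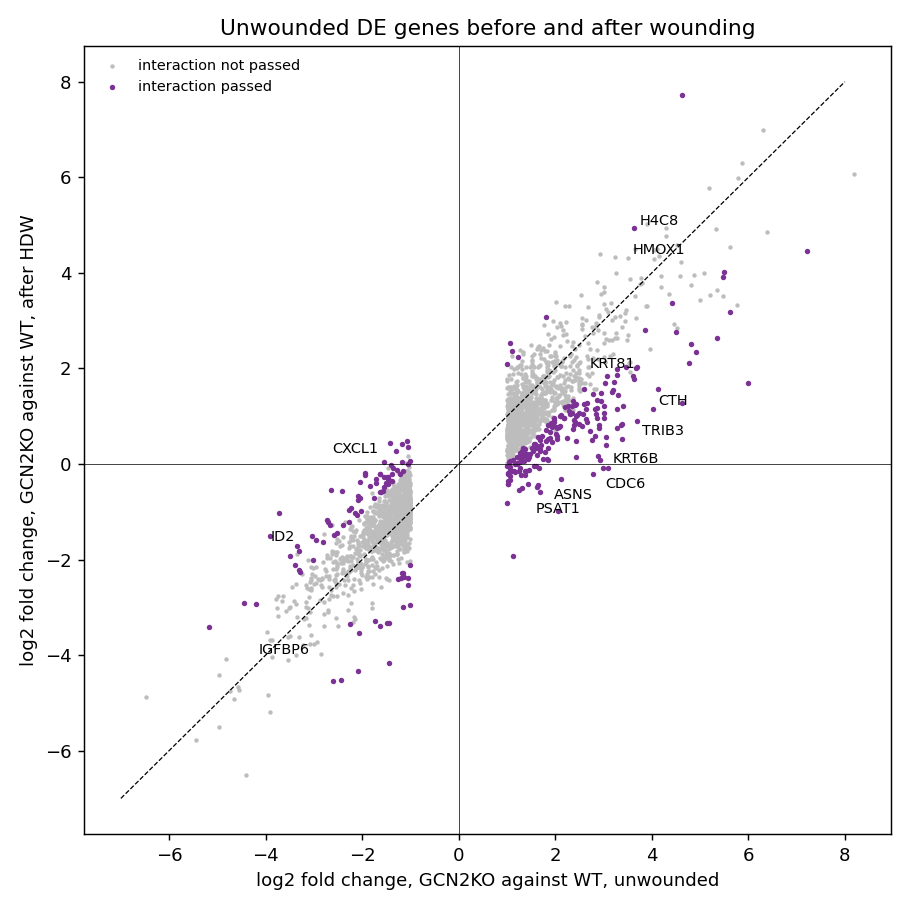
Log2 fold change of GCN2KO against WT cells after HDW (vertical axis) and in unwounded cells (horizontal axis) for the 2521 unwounded DE genes. Purple points passed the interaction test with a size of at least 1, grey points did not, the dashed line marks equal values, and labels name genes given in the text.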

How the data were processed

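RNA-seq was read from 10 unwounded libraries, 5 of WT and 5 of GCN2KO keratinocytes, and 10 wounded libraries entered the interaction and the fits of all 20 libraries. The authors purified RNA with a Qiagen kit, had libraries made and sequenced on an Illumina HiSeq, trimmed reads with Trimmomatic v.0.36, aligned them to GRCh38 with STAR v.2.5.2b and counted reads per gene with featureCounts of Subread v.1.5.2. The deposited files hold these raw counts, 1 file per library with 57500 genes each. Strandedness, poly(A) selection and the annotation release are not given in the sources used here, so reads of overlapping genes could have been counted for either. All values are whole numbers, and no 2 replicates agreed within sampling noise (chi-square per degree of freedom 2.291 to 44.34).

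Groups were taken from the sample titles. Genes were filtered with filterByExpr (minimum count 10, minimum total 15), scaled by TMM and tested with edgeR 4.0.16 (glmQLFit and glmQLFTest, R 4.3.3) without pairing, as the study compared them, and p-values were adjusted by Benjamini-Hochberg over all genes tested. The interaction was fitted over 20 libraries as the unwounded minus the wounded difference. SEs were the log2 fold change divided by the root of F. Single values per library were compared by a two-sided exact permutation test. Gene names, positions and exon lengths are those of GENCODE 44 on GRCh38, which matched 56410 IDs. The 1090 others held 0.1004% of counts and stayed in the test. Promoters are those of RefSeq, matched by symbol. The code was tested on simulated data.

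The groups compared and the gene lists were chosen with earlier results of these data known. Genes were named by rule: EIF2AK4, in each list up to 3 higher and 3 lower DE genes of largest fold change with a mean of at least 50 counts and groups that do not overlap, or else the most abundant member, the 12 higher and 12 lower DE genes most abundant per kilobase, the 6 higher and 6 lower of smallest adjusted p under 50 counts, and the 6 each way with the greatest mean among genes at 3 counts or fewer in every library of a genotype. Of 194 genes given with values, 29 DE genes fall outside this rule and, with the 29 under the threshold, were chosen after their values were seen. Some genes that the rule names are not reported here. Alternatives were DESeq2, other scalings, filters and thresholds, thinned counts, a fit of all 20 libraries, a replicate block and each library left out. DESeq2 was version 1.42.0 here, and the authors used a version that is not given in the sources used here. Removal of the length trend, GCN2KO libraries 2 and 3 left out together and chromosome 5 left out were added after seeing the data.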

Additional observations from a re-analysis of the deposited data

Results flagged for a closer look

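GCN2KO library 1 stood apart from its group in more genes than any other library. For 15 of the 194 genes given with values, the gap between its normalized count and the nearest of the other 4 GCN2KO libraries took a share of the range of the group that is over Dixon's critical value for 5 samples. Its count was the highest of the group in each case, for ACKR3 (1088), ALOX15B (425), CLCA4 (273), EFNB3 (74.5), FGFR3 (732), KRT14 (37877), KRT15 (89247), MT2A (2208), MUC1 (307), PGD (5656), PHGDH (5005), SLC1A3 (2129), ST6GALNAC2 (966), TOP2A (67.3) and TP53I3 (1259.5). In the other GCN2KO libraries KRT24 in library 4 (175) was the highest and COL7A1 in library 3 (3528) the lowest by the same measure. In WT the high values were those of NFKB1 in library 3 (2779), RELA in library 1 (2761) and RPL26L1 in library 5 (569). For independent groups chance gives such a value in about 1 of 20, or 19.7 of the 394 groups read here, and 20 were found. The genes were read in the same libraries and are not independent, so the total cannot be judged against chance. Of the 20 values 15 fell in GCN2KO library 1. EIF2AK4 was at its lowest of all libraries in GCN2KO library 1, with 734 counts. The cause was not tested.

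A total of 37 of the 165 DE genes given with values had a difference between the genotypes that was not the same before and after HDW. They passed the interaction test with an adjusted p of at most 0.05 and a size of at least 1. So did 286 of the 2521 DE genes and 3.31% of all genes tested. Most were named for a large unwounded difference, which is part of the interaction, so these counts are a description. The values in brackets are the log2 fold change in unwounded cells minus that in wounded cells. Among genes higher in unwounded GCN2KO cells the difference was smaller or of the opposite sign after HDW in AARS1 (1.17), ARG2 (2.11), ASNS (2.43), CDC6 (3.08), CHAC1 (2.15), CTH (2.86), DDIT3 (1.80), FOXA2 (1.83), GARS1 (1.42), HERPUD1 (1.66), HSPA13 (1.17), HSPA5 (1.25), KRT24 (1.74), KRT6B (3.19), KRT78 (1.28), LRAT (3.03), PSAT1 (2.26), SEL1L (1.09), SERPINB2 (1.84), SLC31A1 (1.03), SLC7A11 (1.90), SPRR2A (1.55), SPRR2D (2.57), SPRR2E (1.48) and TRIB3 (2.79). It was wider after HDW in H4C8 (-1.30). Among genes lower in unwounded GCN2KO cells it was smaller after HDW in CXCL1 (-1.40), DLL1 (-1.08), GBP1 (-1.42), HSD11B2 (-1.54), ID2 (-1.64), JAG2 (-1.19), LAMB1 (-1.18), LOXL4 (-1.76), MMP13 (-1.55), SLC1A3 (-1.31) and SOX4 (-1.06).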

How the results depend on the processing

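The 2521 DE genes, 1260 higher and 1261 lower, rest on the fold change threshold and the filter. At the adjusted p alone there were 5130 higher and 5083 lower, under edgeR's glmTreat against a fold change of 2 there were 727 and 698, with a mean of at least 50 counts 796 and 834 of fewer genes tested, and with no filter 2132 and 1788 of more. Leaving out each library in turn gave 1213 to 1368 higher and 1228 to 1443 lower DE genes. DESeq2 called 1828 and 1580, and counts thinned to the smallest library gave 1038 and 1091, of which 2024 were among the 2521, so the depth sets part of the calls. The numbers of the replicates did not pair the libraries, since same-numbered GCN2KO and WT libraries deviated from their group means with r from -0.0351 to 0.0746 and 1 of 5 numbers matched best with itself. With the replicate block 1259 genes were higher and 1287 lower, and 2506 were shared.

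The interaction with HDW was called in 547 of all genes and 286 of the DE genes, in 3926 and 868 at the adjusted p alone, and in 528 and 278 with the replicate block. The mitochondrial share in GCN2KO minus that in WT cells, -0.0393 percentage points, was -0.0565 to -0.0200 with 1 library left out, and without GCN2KO library 4 the difference of -0.0565 had an exact permutation p of 0.0317. Among the genes given with values, none that was called in the main fit or in an alternative changed direction in that alternative. A change of sign in a gene called in neither was not counted. The 2 normalizations tried, DESeq2 size factors and library size alone, changed no call of the 194 genes given with values. In these genes no single library changed a call. CD14 went to -0.972 without GCN2KO libraries 2 and 3 together, and ATF6 to 1.03 with the length trend removed. Under glmTreat 17 of them were no longer called, among them CALR, FTL, LAMB3, RPS6, RPS4X, QARS1 and ATF5. For the lists, the counts of members that moved by over 1.5 times, of 89, were 69 at the adjusted p alone, 41 under glmTreat, 20 with a mean of at least 50 counts, 12 with no filter, 9 under DESeq2, 9 after thinning and 2 with library size alone.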

Other observations

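Families that take up little of the account above held further DE genes, most of them at low or moderate abundance. Of 31 TRP, sodium, calcium and chloride channel genes 9 were lower and 2 higher. TRPV4, a calcium-permeable channel opened by warmth and stretch, had 152, 113, 154, 129 and 115 counts in WT and 15.5, 23.7, 12.7, 14.5 and 16.02 in GCN2KO libraries (log2 fold change of -3.04 with SE 0.17, edgeR adjusted p = 3.35e-10), and the groups did not overlap. GJA1, the gap junction protein connexin 43, fell from 3062 ± 227 to 1095 ± 102 (log2 fold change -1.48, SE 0.076). Of 17 ADAM and ADAMTS genes, which encode shedding and matrix-cutting proteases and their relatives, 7 were lower and 3 higher, with ADAMTSL4 from 590.4 ± 44.98 to 130.4 ± 21.8 (log2 fold change -2.19, SE 0.11). Of 41 genes matched as adhesion or orphan receptors 11 were lower and 5 higher (3 without GCN2KO library 3 or WT library 1). That match was by symbol and takes in GPR15LG, which is a ligand. Tubulins and kinesins had 6 higher and 6 lower genes of 47. TUBB2A, a beta tubulin, had 87.1, 53.2, 57.6, 63.7 and 62.6 and 339.5, 527, 774, 819.7 and 528 counts (log2 fold change of 3.23 with SE 0.22, edgeR adjusted p = 3.33e-09), and it is close in sequence to TUBB2B, which was higher as well (log2 fold change 2.75, SE 0.42).

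In the signalling families of immunity the changes went both ways. Of 15 chemokine and receptor genes 6 were lower and 2 higher. ACKR3, a receptor that takes up CXCL12, fell from 3375 ± 188 to 801 ± 164 (log2 fold change -2.08, SE 0.11), and ACKR2, which clears inflammatory chemokines, rose from 29.6 ± 6.78 to 130.2 ± 17.7 (log2 fold change 2.09, SE 0.16), with 25.2% of its exonic bases shared with other genes. Of 38 interleukin and receptor genes 4 were higher and 3 lower (5 without GCN2KO library 2), which is near the background. Within the IL-36 group the agonist IL36G stood lower (log2 fold change -1.32, SE 0.15) and the antagonist IL36RN higher, with 63.5, 56.4, 59.8, 63.7 and 65.2 and 199, 219, 274, 302 and 258 counts (log2 fold change of 2.02 with SE 0.13, edgeR adjusted p = 1.30e-09). TNFSF10, the death ligand TRAIL, fell from 7775 ± 174 to 2693 ± 856 (log2 fold change -1.53, SE 0.16). Among 30 p53 targets 5 were higher and 1 lower with a median of 0.13. SESN2, a sestrin that ATF4 is known to induce too, rose from 1297 ± 146 to 2759 ± 195 (log2 fold change 1.09, SE 0.080) and TP53I3, a quinone oxidoreductase, fell from 2784 ± 189 to 1015 ± 137 (log2 fold change -1.46, SE 0.085). Of 32 lysosomal cathepsin and proton pump genes 4 were lower, with CTSH, a cysteine protease, at 5191 ± 286 in WT and 1347 ± 295 in GCN2KO cells (log2 fold change -1.95, SE 0.12), and 1 higher, or 2 without GCN2KO library 1 or 2 or WT library 1, 2 or 3. Proteasome subunits hardly entered the lists, with 1 higher (0 without GCN2KO library 3 or 5) and 1 lower of 46 and a median of 0.26.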
